A study of Mus musculus with 6 samples.

Results

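The genes described here are those of the Wnt ligands, of the Frizzled receptors that bind them at the cell surface, and of their secreted inhibitors of the Sfrp and Dkk families, measured in muscle-derived stem cells (MDSC) and embryonic stem cells (ESC) of the mouse. They were chosen by name: every array probe whose accession matched a symbol of the form Wnt, Fzd, Sfrp1 to Sfrp5 or Dkk1 to Dkk4, without regard to its values. That gave 37 genes (19 Wnt, 10 Fzd and 8 inhibitor genes) with 43 probes, of 37153 genes and unnamed features with a level. No probe matched Sfrp3, which the table lists as Frzb, and Frzb is given below with the other genes of the pathway.

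Wnt proteins are lipid-modified signals that act over short distances. When a Wnt binds a Frizzled together with the co-receptors Lrp5 or Lrp6, the complex that destroys beta-catenin is inhibited, and beta-catenin enters the nucleus and acts with Tcf and Lef factors on target genes. Other Wnts act through Frizzleds without beta-catenin, on cell polarity and calcium. Sfrp proteins carry a Frizzled-like domain that binds Wnts outside the cell, whereas Dkk1, Dkk2 and Dkk4 bind Lrp5 and Lrp6. In muscle, Wnt signals act in satellite cell expansion and in fibrosis, and in the embryo Wnt3 is needed for gastrulation.

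Total RNA of 6 cultures was hybridised to 1-colour arrays, 2 for each kind of cell. The cells labelled Mstn-null and wild-type (WT) MDSC were the slowest adhering fraction of hindlimb muscle cells of 5 week old male mice, at passage 1 after a fortnight in medium with serum and chick embryo extract. Each of these genotypes was represented by 2 isolations. Mstn encodes myostatin, a secreted inhibitor of muscle growth, and neither the null allele nor the number of mice behind an isolation is given in the sources used here. W4 is 1 established male ESC line, taken at passages 12 and 15, so its replicates are passages and not separate lines. The ESC are called feeder free in the labels, but their growth protocol mentions fibroblast feeders that were removed by brief plating. None of the cells was treated.

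Values are log2 signals relative to the 75th percentile of each array, and a difference is a difference of these log2 signals. Between 53.3% and 64.6% of the 59305 spots of an array were well above background and none was saturated. Below, above background means marked as well above it by the scanner software, and at background means not well above it. The number of arrays limits the precision. Among the markers of the labelled cells, all 8 pluripotency genes were above background on both ESC arrays, with mean log2 signals of 4.47 and 4.64, against -4.25 to -3.93 in MDSC, where 4 or 5 of the 8 were above background on each array. Of the 8, 7 were lower in MDSC and Nanog was higher (0.56 on the log2 scale, limma adjusted p = 0.0185). All 10 fibroblast and mesenchyme genes were above background on every MDSC array (means of 5.15 to 6.40). They were also above background on the passage 12 ESC array (10 genes, mean 2.20) and the passage 15 array (9 genes, mean -0.32). Of 8 myogenic markers, Myod1, Myog, Des, Cdh15, Chrna1 and Myh3 were above background on all 4 MDSC arrays, Pax7 on 1, a WT array, and Myf5 on none. Myod1, Myog, Chrna1 and Myh3 were higher in MDSC than in ESC, for example Myog by 6.13 and Chrna1 by 5.35 on the log2 scale (limma adjusted p = 0.00236 and 0.00643). Of 9 immune genes, 8 or 9 were above background on each MDSC array, with means of 2.00 and 4.07 in the labelled Mstn-null cultures, 0.67 and -1.13 in the WT cultures and -3.63 and -2.85 in the ESC cultures. The means of 6 endothelial genes ran from -3.15 to -2.31 in MDSC, against -3.26 and -3.22 in ESC. Those of 6 pericyte and smooth muscle genes ran from 0.95 to 1.39 in MDSC, against -0.48 and 0.06, and those of 6 Schwann and glial genes from -1.51 to -0.79, against -2.38 and -2.27. The Mstn probe gave log2 signals of -3.06 and -2.47 in the labelled Mstn-null cultures, -4.90 and -6.71 in the WT cultures and -7.23 and -6.85 in the ESC cultures, above background on the arrays labelled Mstn-null alone. It showed no loss there, and its place relative to the deleted part is not given in the sources used here, so every direction between the genotypes rests on the labels. The WT arrays were on one slide and the other 4 arrays on another, so for WT the slide and the group cannot be told apart.

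The start regions of 4 of these genes are shown because they belong to the largest rises and falls given below. They are the 2 genes with the largest rise and the 2 with the largest fall in MDSC among those called with 1 kept promoter. Promoters from the RefSeq table (assembly GRCm38.p6) were kept for 25 of the 37 genes. None was kept for Wnt8a, which had a larger fall than Wnt3 (log2 difference -5.25 against -5.10). The same holds for Sfrp1, which had a larger rise than Dkk2 (4.15 against 3.25). Each region shown runs 5′ to 3′ on the gene's own strand, with 250 bases before and 50 after the annotated start. Capitals mark matches on either strand. The letters searched were GGGCGG, known as a GC box. The letters TATAAA, the TATA box, were the next. The last were CTTTGAT, found in many Tcf and Lef sites, and its variant with another base near the end, CTTTGTT. No 2 matches overlap in these 4 promoters. The promoters are those of Fzd10 (chr5:128600856-128601155, plus strand) and Wnt3 (chr11:103773925-103774224, plus strand), which were lower in MDSC, and Fzd1 (chr5:4758167-4758466, minus strand) and Dkk2 (chr3:132085042-132085341, plus strand), which were higher.
Fzd10: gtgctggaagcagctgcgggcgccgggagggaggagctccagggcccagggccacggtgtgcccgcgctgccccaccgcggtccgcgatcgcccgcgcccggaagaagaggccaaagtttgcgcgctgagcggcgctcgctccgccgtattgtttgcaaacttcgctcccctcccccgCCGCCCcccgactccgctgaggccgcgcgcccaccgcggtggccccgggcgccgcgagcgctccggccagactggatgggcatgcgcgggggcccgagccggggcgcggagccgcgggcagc
Wnt3: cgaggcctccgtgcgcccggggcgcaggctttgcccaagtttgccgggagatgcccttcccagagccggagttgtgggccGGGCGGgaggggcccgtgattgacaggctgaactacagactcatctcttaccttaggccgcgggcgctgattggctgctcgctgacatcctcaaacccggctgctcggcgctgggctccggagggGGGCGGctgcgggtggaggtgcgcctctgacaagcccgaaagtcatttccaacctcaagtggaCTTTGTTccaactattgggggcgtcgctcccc
Fzd1: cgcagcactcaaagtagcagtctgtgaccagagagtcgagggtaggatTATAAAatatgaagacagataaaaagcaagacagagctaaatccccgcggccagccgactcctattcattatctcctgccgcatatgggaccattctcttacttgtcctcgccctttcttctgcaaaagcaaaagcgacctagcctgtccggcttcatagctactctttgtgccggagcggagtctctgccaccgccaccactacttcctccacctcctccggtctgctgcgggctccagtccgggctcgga
Dkk2: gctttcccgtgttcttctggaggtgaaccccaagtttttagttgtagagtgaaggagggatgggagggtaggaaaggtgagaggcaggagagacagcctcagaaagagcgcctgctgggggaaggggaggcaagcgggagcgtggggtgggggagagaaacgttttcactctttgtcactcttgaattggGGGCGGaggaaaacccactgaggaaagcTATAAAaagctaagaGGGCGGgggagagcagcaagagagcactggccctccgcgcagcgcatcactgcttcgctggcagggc
The Fzd10 promoter held 77.7% G and C with 45 CpG dinucleotides, and the Wnt3 promoter 65.7% with 24. The Fzd1 promoter held 54.0% with 16 CpG and that of Dkk2 57.7% with 11. Over all 32851 promoters of the table the medians were 52.7% and 7 CpG. These 4 promoters do not stand for the others: those of Fzd4 and Wnt10b, also higher in MDSC, held 72.7% and 66.3%, and that of Sfrp5, lower in MDSC, 61.3%. GGGCGG stood once in Fzd10 and in 2 places each in Wnt3 and Dkk2. It occurs in 35.7% of all promoters and in 21 of the 28 promoters kept for 25 of the 37 genes. TATAAA stood in Fzd1 and Dkk2 and occurs in 13.6% of all promoters and in 4 of the 28. CTTTGTT stood in Wnt3 (5.85% of all promoters, 3 of the 28), and CTTTGAT in none of the 4 shown (3.73% of all, 2 of the 28). These matches describe the letters only.

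Most of the 37 genes gave a signal in both kinds of cell. There were 24 and 24 above background in the labelled Mstn-null cultures, 26 and 26 in the WT cultures and 29 and 30 in the ESC cultures. The Frizzleds were the most widely detected, with 9 of 10 above background on all 6 arrays, against 6 of 8 inhibitors and 7 of 19 Wnts. Wnt2, Wnt2b, Wnt3a, Wnt8b and Dkk4 were above background on no array. Wnt7a, known in muscle as a ligand that drives satellite cell expansion, was above background only on WT replicate 2 (-4.11) and ESC passage 15 (-3.07). Dkk1 was above background only on ESC passage 15 (-3.60). A gene was tested where both arrays of some group showed it above background, which held for 30 of the 37 genes. Of these, Fzd10, Wnt3, Wnt4, Wnt6, Wnt7b and Wnt8a were tested through ESC alone and Wnt9b and Wnt10b through MDSC alone, so a difference in these 8 was in part set by the filter.

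**Figure D1:**
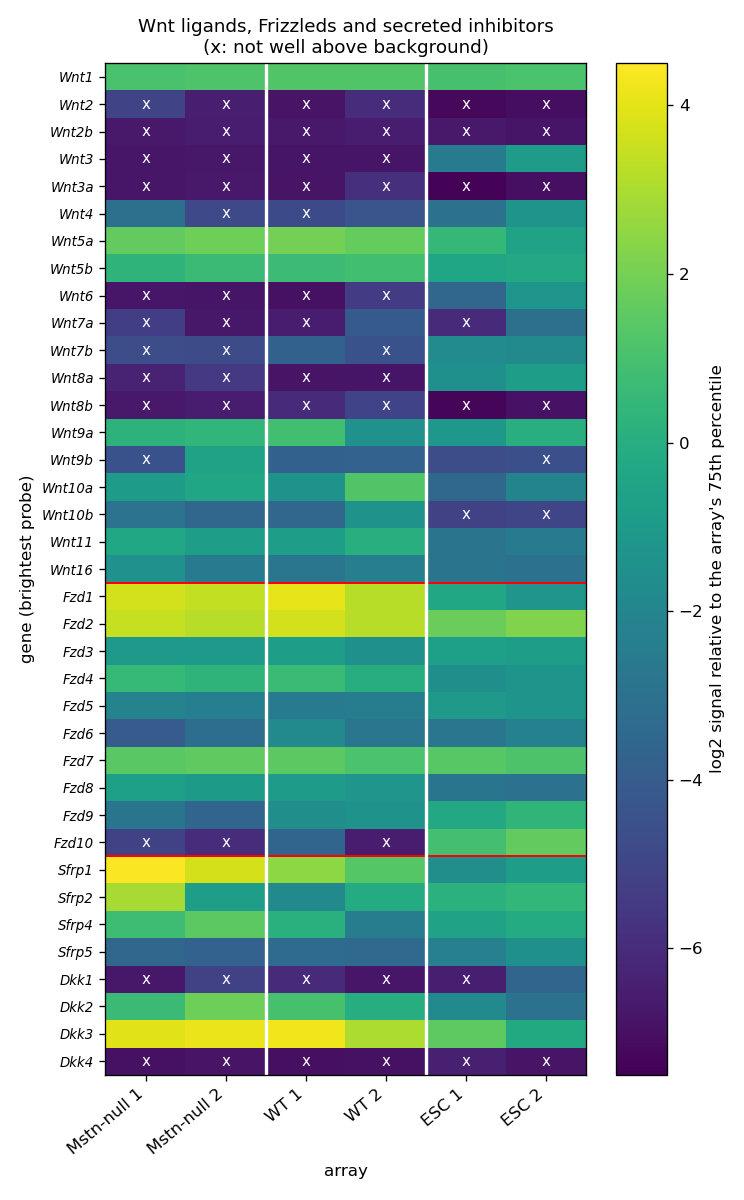
Log2 signal, relative to the array's 75th percentile, of the brightest probe of each of the 37 genes (rows) on each of the 6 arrays (columns), with crosses where the probe was not well above background; red lines part Wnts, Frizzleds and inhibitors. Crosses fill most of the MDSC columns for Wnt3, Wnt6, Wnt7b, Wnt8a and Fzd10, whose ESC columns have none.

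The comparison of MDSC of both genotypes with ESC asked how the cells differ in expression, the stated aim being to define their potency by it. MDSC had higher signals for Wnt5a, Wnt5b, Wnt10b, Wnt11, Fzd1, Fzd2, Fzd4, Fzd8, Sfrp1, Dkk2 and Dkk3, and lower signals for Wnt3, Wnt4, Wnt6, Wnt7b, Wnt8a, Fzd5, Fzd9, Fzd10 and Sfrp5. Thus 11 of the 30 tested genes were higher and 9 lower (two-sided limma test, adjusted by Benjamini-Hochberg over all 25055 features tested, threshold 0.05), where 28.3% of all features were called higher and 31.4% lower. The shares among these genes were close to that background, so the number of calls does not set them apart. The median difference was 0.42 over the 30 genes and -0.03 over all features tested. In cultures measured whole, fewer cells of a type and less RNA per cell cannot be told apart.

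Among the ligands lower in MDSC, Wnt3, Wnt6 and Wnt8a were detected in ESC alone. Wnt3, the ligand of primitive streak formation, had log2 signals of -6.80 and -6.71 in the labelled Mstn-null cultures, -6.83 and -6.81 in the WT cultures and -2.49 and -0.87 in the ESC cultures. It was at background on all 4 MDSC arrays and thus at least 7.84-fold lower in MDSC (limma adjusted p = 0.00111). Wnt8a, which acts in posterior patterning of the embryo, had log2 signals of -6.30 and -5.53 in the labelled Mstn-null cultures, -6.87 and -6.82 in the WT cultures and -1.47 and -0.78 in the ESC cultures. It too was above background on the ESC arrays alone, at least 11.5-fold lower in MDSC (adjusted p = 0.000412).

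Wnt6, a ligand of epithelia and somites, gave log2 signals of -6.76 and -6.82 in the labelled Mstn-null cultures, -6.95 and -5.41 in the WT cultures and -3.54 and -1.20 in the ESC cultures. The ESC passages lay apart from each other but both above every MDSC array, where the gene was at background, and the fall in MDSC was at least 4.88-fold (limma adjusted p = 0.00891). Wnt7b, a ligand of lung and kidney development, had log2 signals of -4.68 and -4.70 in the labelled Mstn-null cultures, -3.76 and -4.45 in the WT cultures and -1.70 and -1.81 in the ESC cultures. It was above background on 1 of the 4 MDSC arrays, WT replicate 1, and fell by 2.64 in MDSC on the log2 scale (SE 0.23, n = 4 and 2 arrays, limma adjusted p = 0.00103). Wnt4, a ligand of kidney and ovary development, had log2 signals of -3.06 and -4.84 in the labelled Mstn-null cultures, -4.81 and -4.32 in the WT cultures and -2.97 and -1.29 in the ESC cultures. Its highest MDSC array came close to the lower ESC array, and the call for its difference of -2.13 ± 0.69 (SE, limma adjusted p = 0.0473) was the least firm of the 9. Leaving out ESC passage 15 gave -1.29 with an adjusted p of 0.233, and the call was also lost on leaving out Mstn-null replicate 2, WT replicate 1 or WT replicate 2, with adjusted p of 0.0805, 0.108 and 0.0815. It was lost as well with quantile normalization (0.0661), with normexp background correction (difference -0.92, adjusted p = 0.0776), with no filter on dim probes (0.066) and on slide 2 alone (0.154).

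The ligands that were higher in MDSC were above background in ESC as well, except Wnt10b. Wnt5a, the best known ligand of the branch that works without beta-catenin, had log2 signals of 1.59 and 1.86 in the labelled Mstn-null cultures, 1.98 and 1.64 in the WT cultures and 0.49 and -0.59 in the ESC cultures. No MDSC array overlapped an ESC array, and the difference was 1.82 ± 0.34 (SE, n = 4 and 2 arrays, limma adjusted p = 0.00884). Its close relative Wnt5b had log2 signals of 0.30 and 0.67 in the labelled Mstn-null cultures, 0.73 and 0.87 in the WT cultures and -0.43 and -0.24 in the ESC cultures, and the rise in MDSC was smaller at 0.98 ± 0.17 (limma adjusted p = 0.00742). Wnt11, another ligand of the polarity branch, had log2 signals of -0.33 and -0.79 in the labelled Mstn-null cultures, -0.76 and 0.04 in the WT cultures and -2.88 and -2.55 in the ESC cultures. Its difference of 2.25 ± 0.30 (limma adjusted p = 0.00302) was wider than that of either Wnt5 gene. The spread between the MDSC arrays of these 3 genes was at most 0.83 log2 units.

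Wnt10b, known as a brake on fat cell formation, had log2 signals of -2.94 and -3.52 in the labelled Mstn-null cultures, -3.54 and -1.40 in the WT cultures and -5.14 and -4.98 in the ESC cultures. It was at background on both ESC arrays, and MDSC were at least 4.48-fold higher (limma adjusted p = 0.0304). That call rested on few arrays: the adjusted p was 0.0758 without Mstn-null replicate 1, 0.0571 without Mstn-null replicate 2, 0.128 without ESC passage 12 and 0.112 without passage 15. With normexp background correction the difference was 0.97 (adjusted p = 0.0614), which is below the bound given for the processed signal. Wnt10a, a ligand of teeth and hair, had log2 signals of -0.90 and -0.46 in the labelled Mstn-null cultures, -1.36 and 1.25 in the WT cultures and -3.51 and -2.09 in the ESC cultures. The MDSC arrays lay above the ESC arrays, yet WT replicate 2 stood far above the other MDSC arrays, and the difference of 2.43 ± 0.83 did not pass (limma adjusted p = 0.054). It passed under 6 of the alternatives tried, with adjusted p between 0.0125 and 0.0482, among them leaving out WT replicate 1 (0.0125) or WT replicate 2 (0.046).

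The other 4 tested ligands did not pass. Wnt1, an organiser of the midbrain, had log2 signals between 1.02 and 1.23 on all 6 arrays from its brighter probe, a difference of 0.13 (limma adjusted p = 0.43). Its second probe was above background on no array, with log2 signals of -7.41 to -6.70, so the 2 Wnt1 probes disagree on whether the gene was detected. Wnt16, a ligand known from bone, had log2 signals of -1.41 and -2.59 in the labelled Mstn-null cultures, -2.79 and -2.38 in the WT cultures and -2.89 and -3.04 in the ESC cultures. All MDSC arrays lay above the ESC arrays, but Mstn-null replicate 1 alone by a wide margin, and the difference was 0.67 ± 0.37 (limma adjusted p = 0.171), or 0.96 with an adjusted p of 0.0316 without Mstn-null replicate 2. Its dimmer probe gave 2.14 (adjusted p = 0.0482 over all probes tested, of which 58.9% were called).

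Wnt9a, a ligand of joint formation, had log2 signals of 0.24 and 0.38 in the labelled Mstn-null cultures, 0.85 and -1.43 in the WT cultures and -1.10 and 0.06 in the ESC cultures, with WT replicate 2 below both ESC arrays and the other MDSC arrays above them. Wnt9b, needed for kidney tubules, had log2 signals of -4.49 and -0.58 in the labelled Mstn-null cultures, -3.77 and -3.71 in the WT cultures and -4.65 and -4.57 in the ESC cultures, where Mstn-null replicate 2 alone was bright. Their differences were 0.53 ± 0.71 and 1.47 ± 1.08 (limma adjusted p = 0.546 and 0.283). These values depended on single arrays: without WT replicate 1 the difference of Wnt9a was -0.040 (adjusted p = 0.941), while that of Wnt9b was 0.49 without Mstn-null replicate 2, its bright array (adjusted p = 0.0871), and 2.45 without Mstn-null replicate 1 (adjusted p = 0.00308).

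Several Wnt genes lie next to each other in the genome as old duplicated pairs, and 4 such pairs are neighbours in the RefSeq table. No pair was called in the same direction. Wnt6 was lower in MDSC, while its neighbour Wnt10a had a difference of 2.43 that did not pass. Wnt3 was lower, while its neighbour Wnt9b had 1.47, not called. Wnt10b was higher and its neighbour Wnt1 was level with 0.13, not called. Of the fourth pair, Wnt3a was at background on every array and Wnt9a was not called.

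**Figure D2:**
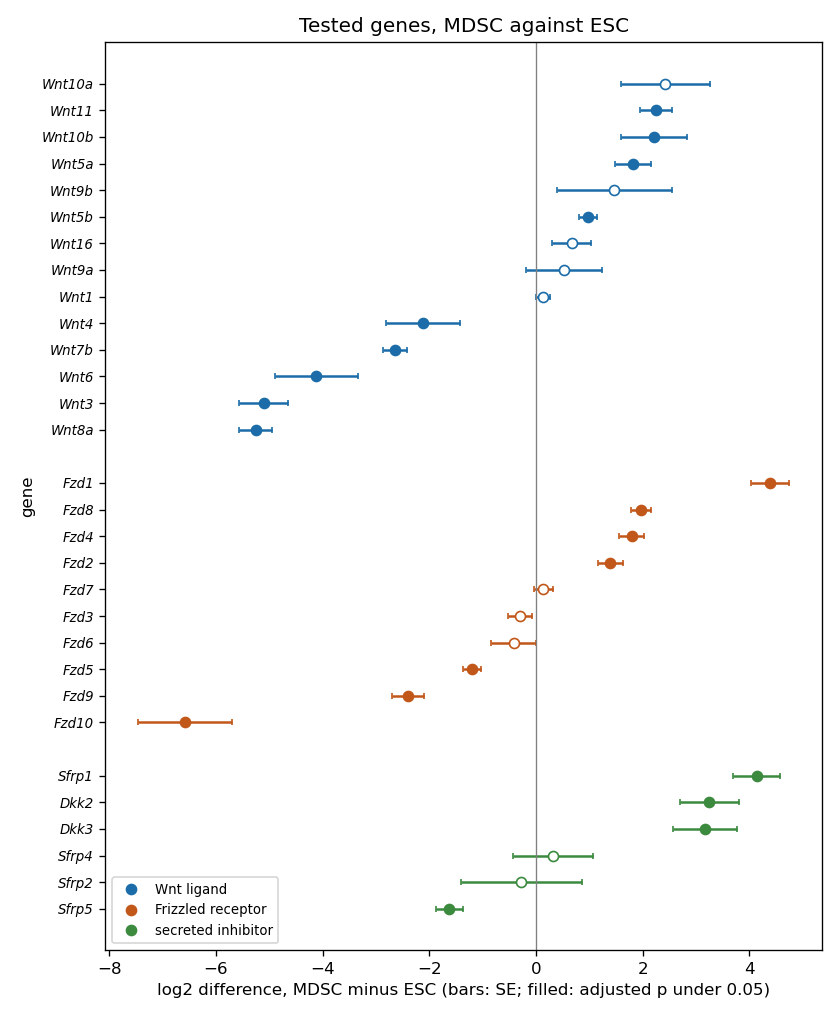
Log2 difference of MDSC minus ESC (x axis) for the 30 tested genes (y axis), grouped as Wnt ligands, Frizzled receptors and secreted inhibitors, with bars for the SE and filled points for an adjusted p under 0.05. Points lie from -6.58 for Fzd10 to 4.39 for Fzd1; for Wnt3, Wnt6, Wnt8a and Wnt10b, at background on one side, the point is the measured difference, and the fold is stated only as a lower bound.

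The Frizzled receptors were called in both directions. Fzd1, Fzd2, Fzd4 and Fzd8 were higher in MDSC, and Fzd5, Fzd9 and Fzd10 were lower, while Fzd3, Fzd6 and the brighter probe of Fzd7 were not called. Fzd1, a receptor for beta-catenin signalling, had log2 signals of 3.67 and 3.38 in the labelled Mstn-null cultures, 4.07 and 3.22 in the WT cultures and -0.37 and -1.24 in the ESC cultures. The groups were far apart, and Fzd1 was 21-fold higher in MDSC (4.39 ± 0.36 on the log2 scale, SE, n = 4 and 2, limma adjusted p = 0.000893). Fzd2, which also binds Wnt5a, had log2 signals of 3.45 and 3.22 in the labelled Mstn-null cultures, 3.67 and 3.19 in the WT cultures and 1.74 and 2.23 in the ESC cultures, so that it was bright in both cell types and the rise in MDSC was 1.40 ± 0.24 (limma adjusted p = 0.00624). A second, dimmer Fzd2 probe was higher as well, by 2.70 (adjusted p = 0.00122 over all probes).

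Fzd4, the receptor of retinal vessel growth, had log2 signals of 0.55 and 0.32 in the labelled Mstn-null cultures, 0.68 and -0.003 in the WT cultures and -1.52 and -1.30 in the ESC cultures. Fzd8, another receptor of the beta-catenin branch, had log2 signals of -0.71 and -0.95 in the labelled Mstn-null cultures, -0.89 and -1.25 in the WT cultures and -2.83 and -3.01 in the ESC cultures. In both genes the MDSC arrays stood clear of the ESC arrays, with differences of 1.79 ± 0.24 and 1.97 ± 0.18 (limma adjusted p = 0.00324 and 0.00112). Fzd7, through which Wnt7a acts on satellite cells, had log2 signals of 1.42 and 1.56 in the labelled Mstn-null cultures, 1.48 and 1.12 in the WT cultures and 1.39 and 1.13 in the ESC cultures from its brighter probe. The cell types overlapped, with a difference of 0.14 ± 0.18 (limma adjusted p = 0.541). Its dimmer probe had log2 signals of 0.12 and -0.23 in the labelled Mstn-null cultures, 0.18 and -0.10 in the WT cultures and -1.51 and -1.25 in the ESC cultures. That probe was higher in MDSC by 1.37 (adjusted p = 0.00351 over all probes), so the 2 Fzd7 probes disagree, and the mean over both gave 0.75 (adjusted p = 0.0123).

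Fzd10 had the widest measured fall of the 10 Frizzleds in MDSC. Its log2 signals were -5.16 and -5.96 in the labelled Mstn-null cultures, -3.59 and -6.57 in the WT cultures and 0.90 and 1.63 in the ESC cultures, detected in both ESC cultures and 1 of 4 MDSC cultures, WT replicate 1. The difference was -6.58 ± 0.88 (limma adjusted p = 0.00311). Against the arrays labelled Mstn-null, where Fzd10 was at background, the fall was at least 58.8-fold on the processed signal. Fzd9, a receptor of bone and nervous tissue, had log2 signals of -2.85 and -3.60 in the labelled Mstn-null cultures, -1.55 and -1.39 in the WT cultures and -0.25 and 0.36 in the ESC cultures. Both genotypes lay below ESC, the arrays labelled Mstn-null by more, and the difference of all MDSC was -2.40 ± 0.30 (limma adjusted p = 0.0025). Fzd5, a receptor of eye and gut, had log2 signals of -2.13 and -2.32 in the labelled Mstn-null cultures, -2.56 and -2.39 in the WT cultures and -1.003 and -1.29 in the ESC cultures, lower on every MDSC array with a difference of -1.20 ± 0.17 (limma adjusted p = 0.0034), and its second probe gave -1.25 (adjusted p = 0.00195 over all probes).

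Fzd3 and Fzd6, known together for tissue polarity, were detected on every array and not called. Fzd3 had log2 signals of -1.04 and -1.05 in the labelled Mstn-null cultures, -0.78 and -1.46 in the WT cultures and -0.74 and -0.82 in the ESC cultures, with a difference of -0.30 ± 0.23 (limma adjusted p = 0.297). Fzd6 had log2 signals of -4.05 and -3.16 in the labelled Mstn-null cultures, -1.73 and -2.78 in the WT cultures and -2.79 and -2.24 in the ESC cultures, where the WT arrays overlapped the ESC arrays and the arrays labelled Mstn-null lay below them, and the difference over all MDSC was -0.42 ± 0.42 (adjusted p = 0.427).

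Of the 6 tested inhibitors, Sfrp1, Dkk2 and Dkk3 were higher in MDSC and Sfrp5 lower. Sfrp1 had log2 signals of 4.44 and 3.71 in the labelled Mstn-null cultures, 2.46 and 1.36 in the WT cultures and -1.55 and -0.76 in the ESC cultures. All MDSC arrays stood above both ESC arrays, and the rise was 17.7-fold (4.15 ± 0.44 on the log2 scale, SE, n = 4 and 2 arrays, limma adjusted p = 0.00167). Dkk2, which binds Lrp5 and Lrp6, had log2 signals of 0.67 and 1.87 in the labelled Mstn-null cultures, 1.01 and -0.03 in the WT cultures and -1.80 and -2.95 in the ESC cultures. MDSC were 9.54-fold higher (3.25 ± 0.55, limma adjusted p = 0.00642). Dkk3, a divergent member of the family that does not act on Lrp6 as Dkk1 does, had log2 signals of 3.94 and 4.13 in the labelled Mstn-null cultures, 4.23 and 3.01 in the WT cultures and 1.54 and -0.22 in the ESC cultures. It was bright on every MDSC array and was 8.99-fold higher than in ESC (3.17 ± 0.60, limma adjusted p = 0.00902).

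Sfrp5, an inhibitor made in fat tissue, ran the other way, with log2 signals of -3.56 and -3.74 in the labelled Mstn-null cultures, -3.30 and -3.42 in the WT cultures and -2.27 and -1.49 in the ESC cultures and a difference of -1.62 ± 0.26 (limma adjusted p = 0.00516). Sfrp2, which is made by stromal cells, had log2 signals of 2.93 and -0.80 in the labelled Mstn-null cultures, -1.82 and -0.12 in the WT cultures and 0.19 and 0.45 in the ESC cultures. One array labelled Mstn-null was far above the other 3 MDSC arrays, whose values lay below both ESC arrays, and the difference of -0.27 ± 1.13 was not called (adjusted p = 0.846). Leaving out Mstn-null replicate 2 turned it to 0.66, and leaving out WT replicate 1 to 0.15. Sfrp4, an inhibitor active in bone and fat, had log2 signals of 0.76 and 1.48 in the labelled Mstn-null cultures, 0.11 and -2.44 in the WT cultures and -0.56 and -0.12 in the ESC cultures. WT replicate 2 lay below both ESC arrays and the other 3 MDSC arrays above them, and the difference of 0.32 ± 0.74 was not called (adjusted p = 0.731). Without WT replicate 1 it was -0.32, and on slide 2 alone, which leaves out both WT arrays, it was 1.46 and called (adjusted p = 0.0283).

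For dim genes the values also depended on the background correction. With normexp, which adds an offset to every signal, 8 of the 20 called genes moved by over 1.5 times, to -3.88 for Fzd10, -2.09 for Wnt8a, -1.89 for Wnt3, -1.35 for Wnt6, -1.14 for Wnt7b, -0.92 for Wnt4, -0.90 for Sfrp5 and 0.97 for Wnt10b, and all but Wnt4 and Wnt10b were still called. The lower bounds given for Wnt3, Wnt6, Wnt8a and Wnt10b, and that of Fzd10 against the arrays labelled Mstn-null, are therefore those of the processed signal.

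Of the 10 fibroblast genes, 9 were higher on the passage 12 ESC array than on the passage 15 array, by a median of 2.23 log2 units over all 10. The gap was widest for Lum (8.11) and Dcn (5.01), under 0.5 for Pdgfrb, Col1a1 and Thy1, and ran the other way for Postn (-0.75). Among the genes higher in MDSC, passage 12 also lay above passage 15 for Dkk3 by 1.76 log2 units, Dkk2 by 1.16, Wnt5a by 1.08, Fzd1 by 0.87 and Fzd8 by 0.18, and below it for Sfrp1, Fzd2, Fzd4, Wnt5b, Wnt11 and Wnt10b. The part of fibroblast RNA in these levels was not tested. Without the passage 12 array the differences were 4.05 for Dkk3, 3.83 for Dkk2, 2.36 for Wnt5a and 4.82 for Fzd1, and without passage 15 they were 2.29, 2.67, 1.28 and 3.96, each still called.

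Set against ESC one genotype at a time, the calls were nearly the same, but both comparisons use the same 2 ESC arrays and are not independent. Of the 30 genes, 10 were higher and 8 lower in MDSC labelled Mstn-null than in ESC, where 23.3% of all features were called higher and 30.8% lower. In WT MDSC 11 were higher and 8 lower than in ESC, where 27.1% of all features were called higher and 25.9% lower. The genotypes differed in 1 call, Wnt10b, which was called in WT MDSC (at least 5.83-fold higher, limma adjusted p = 0.0326) and not in those labelled Mstn-null (adjusted p = 0.0829). Wnt4 was called in neither alone (adjusted p = 0.112 in MDSC labelled Mstn-null and 0.0532 in WT MDSC).

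Some genes had nearly equal differences from ESC in both genotypes. Fzd1 gave 4.33 in MDSC labelled Mstn-null and 4.45 in WT MDSC, and Wnt5a gave 1.78 and 1.86 in the same order. Fzd8 gave 2.09 and 1.85, and Dkk3 gave 3.37 and 2.96. The widest gaps among genes above background on all 6 arrays that were called in both were those of Sfrp1, at 5.23 and 3.06, and of Fzd9, at -3.28 and -1.52.

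The direct comparison of MDSC labelled Mstn-null with WT MDSC asked whether the genotypes differ in these genes. None of the 30 tested genes was called in either direction (limma, two-sided), where 0% of all 25055 features were called, the smallest adjusted p of any feature being 0.0548. At an unadjusted p under 0.05 there were 5 of the 30 genes and 14.7% of all features. With quantile normalization 11 features were called higher and 14 lower, none of them among these 30 genes. The 5 genes with the smallest p, which did not pass, were Fzd9, Sfrp1, Fzd6, Sfrp4 and Wnt8a.

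Sfrp1 was higher on both arrays labelled Mstn-null (4.44 and 3.71) than on both WT arrays (2.46 and 1.36), a difference of 2.17 ± 0.51 (SE, n = 2 each, limma adjusted p = 0.16). Sfrp4 was higher on both as well (0.76 and 1.48, against 0.11 and -2.44 on WT), by 2.29 ± 0.86 (limma adjusted p = 0.327). Sfrp2 had overlapping arrays, 2.93 and -0.80 on those labelled Mstn-null and -1.82 and -0.12 on WT, with a difference of 2.04 ± 1.31 (limma adjusted p = 0.555). The Sfrp2 difference came from Mstn-null replicate 1, since replicate 2 lay between the WT arrays. Sfrp5 had a difference of -0.29 (limma adjusted p = 0.705), and none of the 4 Sfrp genes passed the test. Leaving out 1 array at a time, the difference of Sfrp1 lay between 1.62 and 2.72 and that of Sfrp4 between 1.01 and 3.56.

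Fzd9 was lower on both arrays labelled Mstn-null (-2.85 and -3.60) than on both WT arrays (-1.55 and -1.39), a difference of -1.76 ± 0.34 (SE, n = 2 each, limma adjusted p = 0.121). Fzd6 was lower on both (-4.05 and -3.16 against -1.73 and -2.78 on WT), with a difference of -1.35 ± 0.49 (limma adjusted p = 0.309). Wnt8a was at background on all 4 MDSC arrays, so its difference measures background. The dimmer Fzd2 probe gave -2.03 (limma adjusted p = 0.0842 over all probes, of which 0.0237% were called), whereas the brighter one gave -0.10. The immune marker means of 2.00 and 4.07 under the Mstn-null label, against 0.67 and -1.13 for WT, and the myogenic means of -1.93 and -2.58 against 0.72 and -1.45 moved with the same groups, as did the slide, and their part in these values was not tested. Median centring moved the median of all features in this comparison to 0.04, against -0.12 with the 75th percentile.

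**Figure D3:**
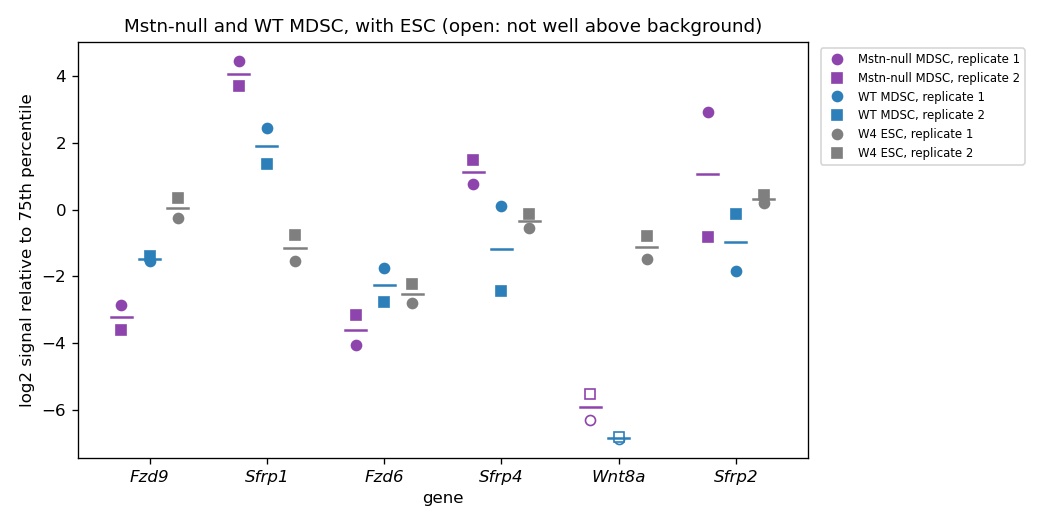
Log2 signal (y axis) on each array of the 5 genes with the smallest p between the genotypes and of Sfrp2 (x axis), for MDSC labelled Mstn-null, WT MDSC and ESC, with the mean of each group as a line and open symbols where a probe was not well above background. Sfrp1 lies at 4.44 and 3.71 on the Mstn-null side, against 2.46 and 1.36 for WT, and no gene shown passed the test between the genotypes.

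Other genes of the pathway were read in 7 lists, which share 7 members (Axin2, Lef1, Lgr5, Notum, Rnf43, Tcf7 and Znrf3). For scale, 28.3% of all features were called higher and 31.4% lower. Of 19 tested beta-catenin target genes, 12 were lower in MDSC than in ESC and 3 higher. Of the 12, Axin2, Sp5, Rnf43, Cdx1, Cdx2 and T were tested through ESC alone, so a difference in these was in part set by the filter. Of the 3 higher genes, Lgr5 was tested through MDSC alone. Among the 12 genes of the list tested through both cell types, 6 were lower and 2 higher. Requiring signal on all 6 arrays left 5 called genes, and the share of all features called under that setting is not given here. Among the genes that meet this, the main fit gave both directions. Tnfrsf19, Ascl2 and Sp8 were lower in MDSC and Nkd2 and Notum higher, while Nkd1, Apcdd1, Ccnd1 and Myc were not called. The list's median difference was -3.27, or -1.63 with genes at background on one side taken at their bound, against -0.03 over all features. Several of these genes, such as the embryonic factors T, Cdx1 and Cdx2, are also marks of early lineages. Sp5, a target that acts in a feedback loop, had log2 signals of -6.76 and -6.67 in the labelled Mstn-null cultures, -5.90 and -6.74 in the WT cultures and 1.26 and 2.78 in the ESC cultures. It was above background on the ESC arrays alone and, on the processed signal, at least 102-fold lower in MDSC (limma adjusted p = 0.000391). With normexp its log2 difference was -4.85, which is below that bound.

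Axin2, which encodes a scaffold of the destruction complex and is among the most used readouts of the pathway, had log2 signals of -4.74 and -5.50 in the labelled Mstn-null cultures, -5.31 and -5.48 in the WT cultures and -1.68 and -1.28 in the ESC cultures. MDSC were at background and at least 9.01-fold lower (limma adjusted p = 0.000624). T, the brachyury gene, was at least 11.8-fold lower in MDSC (adjusted p = 7.15e-05), with log2 signals of -1.22 and -0.96 in ESC. Lef1 had log2 signals of -5.61 and -5.96 in the labelled Mstn-null cultures, -4.11 and -2.47 in the WT cultures and -0.15 and -0.15 in the ESC cultures, detected on both WT arrays and not on those labelled Mstn-null, and the difference over all MDSC was -4.39 (limma adjusted p = 0.00178). Tcf7 was lower as well (-4.65, adjusted p = 0.00058). The 3 targets that were higher in MDSC were Lgr5, a receptor for R-spondins, at 4.19, the inhibitor gene Nkd2 at 2.73, and Notum, a secreted enzyme that inactivates Wnts, at 0.79 (adjusted p = 0.00903, 0.00874 and 0.00851). Lgr5 had an adjusted p of 0.0548 without ESC passage 15, and Nkd1 was not called (-0.80, adjusted p = 0.123).

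**Figure D4:**
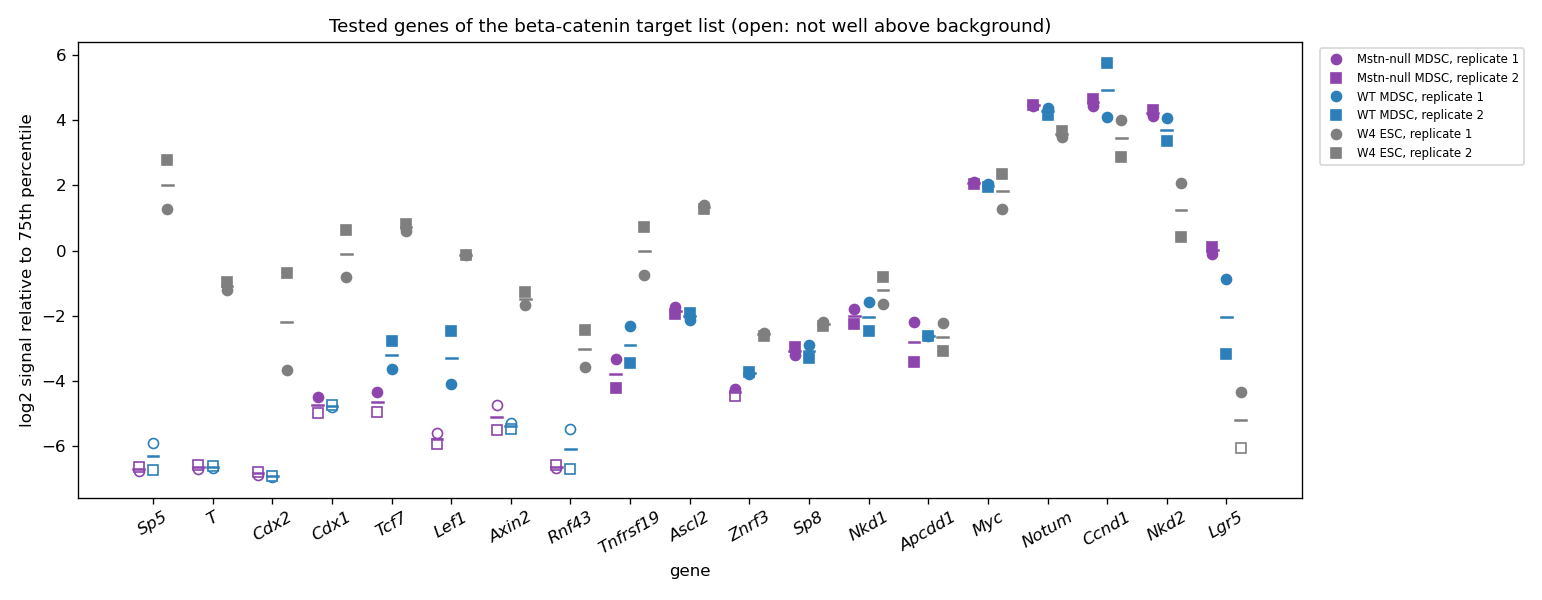
Log2 signal (y axis) on each array of the 19 tested genes of the beta-catenin target list (x axis, ordered by the difference of MDSC minus ESC), for MDSC labelled Mstn-null, WT MDSC and ESC, with group means as lines and open symbols where a probe was not well above background. Sp5, at 1.26 and 2.78 on the ESC arrays and at background in MDSC, is at the left end, and Lgr5, with a difference of 4.19, at the right.

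The R-spondins, secreted proteins that strengthen Wnt signals by keeping Frizzleds at the surface, changed in both directions. Rspo2 had log2 signals of 0.95 and 0.85 in the labelled Mstn-null cultures, 0.53 and -0.08 in the WT cultures and -4.59 and -6.85 in the ESC cultures, a difference of 6.28 (limma adjusted p = 0.00158), and Rspo3 a difference of 3.27 (adjusted p = 0.00912, or 0.0613 without ESC passage 15). Rspo1 ran the other way, with log2 signals of -2.53 and -3.67 in the labelled Mstn-null cultures, -3.45 and -2.68 in the WT cultures and 0.35 and 0.84 in the ESC cultures and a difference of -3.68 (limma adjusted p = 0.00204). Rspo4 was not tested. Of the enzymes that remove Frizzleds from the surface, Rnf43 was at least 3.1-fold lower in MDSC and Znrf3 lower, with a log2 difference of -1.49 (adjusted p = 0.00371 and 0.00128). In the whole R-spondin list 3 of 8 tested genes were higher and 3 lower, near the 28.3% and 31.4% of all features. Rspo2 and Lgr5 were at background on ESC passage 15 and were tested through MDSC alone. Rnf43 was tested through ESC alone, so a difference in each of them was in part set by the filter. Among the 5 genes of the list tested through both cell types, 1 was higher and 2 lower.

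The co-receptor Lrp6 was higher in MDSC by 1.40 (limma adjusted p = 0.00495) and the Wnt5a co-receptor gene Ror2 had 0.51 (adjusted p = 0.148), with Lrp5 at 0.35 (adjusted p = 0.0677), the last 2 not called. Ryk, a receptor kinase that binds Wnts, was higher by 1.87 (adjusted p = 0.00122), and Ror1 was not tested. The surface proteoglycan gene Gpc3 was lower, with a difference of -6.26 (adjusted p = 0.00282), and the Dkk receptor gene Kremen2 at least 3.18-fold lower (adjusted p = 0.00111). In this receptor list 4 of 9 tested genes were higher and 2 lower, where 28.3% and 31.4% of all features were; both lower genes, Gpc3 and Kremen2, were tested through ESC alone. Of the 3 secretion genes, Wls, which carries Wnts to the surface, was higher by 2.81 (adjusted p = 0.00258) and Notum higher as given above, while Porcn, which attaches the lipid, had -0.94 (adjusted p = 0.15).

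In the last 3 lists too the counts stand against 28.3% of all features higher and 31.4% lower. Of 6 other secreted inhibitors tested, 3 were higher in MDSC and 1 lower. Frzb and Wif1, at background on ESC passage 15, were tested through MDSC alone. Among the 3 inhibitors tested through both cell types, 2 were higher and 1 lower. Igfbp4 was higher by 4.41 and Frzb by 3.31, Dkkl1 had a difference of -1.28, and Wif1 one of 1.15 that was not called (limma adjusted p = 0.00152, 0.00776, 0.0139 and 0.308). Without ESC passage 15 the difference of Dkkl1 was -0.85, still called, and that of Wif1 was -0.21. Of 20 genes of the destruction complex and its nuclear factors, 6 were higher and 6 lower, near the shares of all features, with Bcl9l (2.06) and Tle1 (1.38) the largest rises and Tcf7 and Lef1 the largest falls. Tle1 had log2 signals of 1.23 and 1.43 in the labelled Mstn-null cultures, 3.38 and 3.21 in the WT cultures and 1.13 and 0.74 in the ESC cultures. On slide 2 alone, which leaves out both WT arrays, Tle1 had a difference of 0.39 that was not called (adjusted p = 0.201). The mean over its probes, with all 6 arrays, gave 0.80. Ctnnb1, the gene of beta-catenin, had -0.24 and was not called (adjusted p = 0.226). Of 18 genes of the polarity and calcium branch, 5 were higher and 5 lower, again near those shares. Daam2 (3.64) and Nfatc1 (3.60) were the largest rises, and Celsr1 (at least 77.8-fold) and Camk2b (-3.58) the largest falls. Daam2, at background on ESC passage 15, was tested through MDSC alone and Celsr1 through ESC alone, so their differences were in part set by the filter. Among the 16 genes of the branch tested through both cell types, 4 were higher and 4 lower. Camk2b had an adjusted p of 0.011, and of 0.0533 without ESC passage 12 and 0.0664 without passage 15. With normexp, 13 of the other pathway genes named for their size of change or as key genes moved by over 1.5 times, and all stayed called. Among them were Sp5 (-4.85), Celsr1 (-4.41), T (-2.23), Axin2 (-1.62), Rnf43 (-0.82), Kremen2 (-0.71), Rspo2 (3.45), Lgr5 (2.23) and Frzb (1.35). For Sp5, Celsr1, T, Axin2, Rnf43 and Kremen2 the normexp difference is below the lower bound given, so those bounds hold for the processed signal alone.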

How the data were processed

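Per the labels' protocols, 0.5 µg of total RNA from each culture was labelled with Cy3 for 1-colour arrays from Agilent. Each deposited file holds the spot intensities of 1 array, background corrected and not scaled between arrays, per the file headers. These name Agilent Feature Extraction 10.7.1.1 and a design on mouse build mm9, whereas 9.1 is the version in the submitters' processing notes.

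Values were log2 of the processed intensity minus each array's 75th percentile (550 to 647 intensity units), with 100 to 122 outlier spots per array left out and spots of a probe averaged. Of 55681 probes, 26413 matched 1 symbol and 29268 none in a RefSeq table of GRCm38.p6, whose gene coordinates are not used. Each gene was represented by its brightest probe. Of 37153 features, 25055 were tested, being above background on both arrays of some group, and 15475 of these had a name. Group means were fitted together in limma 3.58.1 (R 4.3.3, lmFit and eBayes, two-sided, 3 residual and 2.02 prior degrees of freedom) with Benjamini-Hochberg adjustment over all features and a threshold of 0.05. MDSC is the mean of the Mstn-null and WT means. Where one side was at background on all its arrays, the fold is a lower bound that holds for the processed signal alone. It takes for each dim array the higher of its lowest signal above background and the gene's own signal. With 2 against 2 arrays no exact permutation p can be below 0.333, and with 4 against 2 none below 0.0667, so no such test is given. MDSC replicates are separate isolations, while the ESC replicates, as passages of 1 line, hold no spread between lines.

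The genes and lists were chosen with earlier results of these data known. Every gene of the rule could be named, and between the genotypes the 5 smallest p. Of the pathway lists, the 2 largest rises and falls that passed and a short set of key genes were named. Cdx1, Cdx2, Nkd2, Notum, Tnfrsf19, Ascl2, Sp8, Apcdd1, Ccnd1 and Myc were added where a sentence on a count needed them. The fits were also tested on simulated data holding known log2 changes of 1, 2 and 4. Between the genotypes 0 of 67, 20 of 67 and 45 of 66 of these were called in the right direction, with 4 false calls. In MDSC against ESC 3 of 67, 32 of 67 and 50 of 66 were, with 6 false calls. Small changes were thus mostly missed in the simulated data. Few features were changed there, whereas in the data 14944 of 25055 were called in MDSC against ESC. The adjustment was thus stricter in the simulation, and its rates do not carry over to that comparison.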

Additional observations from a re-analysis of the deposited data

How the results depend on the processing

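Other settings were median centring, quantile normalization, normexp (offset 50, median signals), no filter on dim probes, genes above background on all 6 arrays, outlier spots kept, the mean over probes, every probe on its own, a robust fit with a variance trend, only the groups compared, slide 2 alone, and each array left out. Over these, single-gene results of MDSC against ESC for the 30 genes kept direction and side of the threshold in 443 cases, gained the call in 10, lost it in 13 and turned in 6. The turned values were those of Sfrp2 (0.74 on slide 2 alone, -1.21 to 0.66 with an array left out), Sfrp4 (-0.32 to 0.95, and 1.46, called, on slide 2 alone) and Wnt9a (-0.052 to 1.11), and among other pathway genes Wif1 (-0.21 to 2.51); none of these was called as reported. No scaling turned any of the 30 genes. Of the 37 genes, 22 had signal on all 6 arrays. Requiring this, which removes genes detected on one side, left 3 genes lower in MDSC, 3 in MDSC labelled Mstn-null and 3 in WT MDSC against ESC. It also left 2 called genes in the R-spondin list and 5 in the beta-catenin target list. With an array left out, 10 to 12 genes were higher and 8 to 9 lower in MDSC, and slide 2 alone gave 13 and 8. The shares of all features called under these settings are not given here, so these counts have no background beside them. The median of all features in MDSC against ESC was -0.03, or 0.12 with median centring.

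Isolation numbers are shared between the genotypes, but no label says that a number marks a common batch. Same-numbered isolations did not deviate together (correlation of deviations -0.397). With the isolation number as a block, 0 genes were called higher and 0 lower between Mstn-null and WT, and the adjusted p was 0.421 for Fzd9, 0.414 for Sfrp1 and 0.567 for Sfrp4. The 2 arrays per group limit the precision, and dim probes give bounds only.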
